A study of Mus musculus with 16 samples.

Results

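The mitochondrial ribosome translates the proteins that the mitochondrial genome encodes, all of them subunits of the respiratory chain and ATP synthase. Its own proteins are encoded in the nucleus, translated in the cytosol and imported, and they join mitochondrial ribosomal RNA to form a large subunit, which makes the peptide bond, and a small subunit, which reads the messenger RNA. Some of these proteins descend from bacterial ribosomal proteins and others are found only in mitochondria. Hepatocytes, the main cells of the liver, are rich in mitochondria.

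The genes described here are the 78 of 35502 in the table whose symbol starts with Mrpl or Mrps and a number and does not end in -ps. They are 49 Mrpl and 29 Mrps genes. By where the protein sits, 51 belong to the large subunit, among them Mrps30 and Mrps18a, whose proteins are found in the large subunit despite their symbols. A further 26 belong to the small subunit. Mrps36 belongs to neither, since its protein is now known as a part of the 2-oxoglutarate dehydrogenase complex. All 78 passed the filter on low counts and 0 failed it.

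Liver RNA was counted per gene in 16 mice, with 1 library per mouse and 4 mice in each of 4 groups. LERKO mice carry Cre and lack oestrogen receptor alpha in the liver, and the controls carry the floxed gene without Cre. The groups are mature LERKO, mature control, immature LERKO and immature control. Mature and immature refer to sexual maturity, and stage below means this label. Neither the labels nor the design text give the promoter that drives Cre, the age and sex of the mice, or whether the stage is that of the mouse at knockout or at tissue collection. The liver is a mixture of cell types, so fewer cells of a type and less RNA per cell cannot be told apart.

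Total counts ran from 18123974 to 23213905 per library. Esr1, which encodes oestrogen receptor alpha, averaged 16.3 ± 2.19 CPM in mature LERKO and 82.2 ± 19.1 CPM in mature control livers, and 13.0 ± 2.19 CPM in immature LERKO and 73.6 ± 15.8 CPM in immature control livers (SD, n = 4 each). CPM is a gene's count scaled to a common library total with TMM factors. Every LERKO library was below every control library, so Esr1 went with the genotype labels. The 6 hepatocyte markers summed to 96641 CPM or more in each library. Skeletal muscle markers summed to 680, 305, 0.67 and 48.4 CPM in mature control libraries 1 to 4 and to 133 CPM in immature LERKO library 4, and to at most 2.23 CPM elsewhere. Acute phase markers summed to 61453 CPM in mature LERKO library 4 and to between 2100 and 4309 CPM elsewhere. Library numbers are names only.

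Promoters of some members are shown first, because they are where nuclear regulators act on these genes. Windows from 250 bases before to 50 bases after the RefSeq start (GRCm38.p6) were at hand for 69 of the 78 members, 75 windows in all. The letters GCGCA, any base, then GCGC are the site of nuclear respiratory factor NRF1, an activator of nuclear genes for mitochondrial proteins. They occurred in 13 of the 75 member windows (17.3%), against 4.6% of all 32851 windows and 9.38% of the 13138 windows of tested genes. Both strands were searched. The sites of 5 members are in capitals below, with NRF1 letters in the leading 4 and the ETS letters CCGGAAG in the last. They are Mrpl12 and Mrps21, the members with the highest level per length in each subunit, Mrpl57 and Mrpl44, whose values are described below, and Mrpl27. The windows lie at chr11:120484521-120484600 (forward strand), chr3:95871561-95871640 (reverse), chr14:57826147-57826226 (forward), chr1:79775948-79776017 (forward) and chr11:94653701-94653777 (forward) of GRCm38, each read 5′ to 3′ along the gene.
Mrpl12: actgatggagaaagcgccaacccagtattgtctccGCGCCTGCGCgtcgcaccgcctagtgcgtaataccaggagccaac
Mrps21: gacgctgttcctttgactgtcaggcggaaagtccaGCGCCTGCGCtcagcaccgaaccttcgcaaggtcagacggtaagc
Mrpl57: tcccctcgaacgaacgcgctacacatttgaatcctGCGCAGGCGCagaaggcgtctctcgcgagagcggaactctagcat
Mrpl44: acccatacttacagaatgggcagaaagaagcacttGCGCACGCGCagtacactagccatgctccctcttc
Mrpl27: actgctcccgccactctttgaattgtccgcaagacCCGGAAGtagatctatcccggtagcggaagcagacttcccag

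The NRF1 letters lay 81 bases before the start in Mrpl12, 91 in Mrps21, 57 in Mrpl57 and 35 in Mrpl44. Among other members with the highest levels per length, Mrpl14 had these letters, while Mrpl52, Mrpl42, Mrps24 and Mrps12 did not. Among those lowest per kb of the principal transcript, Mrps26 had them. No NRF1 match was found for Mrps34, among the highest, or for Mrpl19, Mrpl47 and Mrps25, among the lowest. Whether each of these had a window is not given here. The ETS letters, bound by GABPA among other factors, lay 55 bases before the start in Mrpl27. They occurred in 26 member windows (34.7%), against 8.86% of all windows and 16.5% of those of tested genes. The letters AANATGGCG of YY1, another activator of such genes, occurred in 11 member windows (14.7%), against 2.38% of all windows and 4.74% of those of tested genes. At least 1 of the 3 was present in 42 member windows (56%), against 14.2% of all windows and 27% of those of tested genes, in 29 of 50 large subunit windows and 13 of 24 small subunit windows. The E-box CACGTG occurred in 7 member windows (9.33%), against 7.15% of all windows and 9.72% of those of tested genes. The oestrogen response element, GGTCA, any 3 bases, then TGACC, occurred in 0 member windows, against 0.07% of all windows and 0 windows of tested genes. These matches describe letters and say nothing of binding.

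Levels per length spread widely among members. Per kb of the principal transcript, the mean over all libraries ran from 1.85 to 88.8 CPM per kb, with a median of 16.4 over the 78 members, 19.3 over the 51 large subunit genes and 14.6 over the 26 small subunit genes. The highest large subunit genes were Mrpl12 (88.8 CPM per kb), whose protein forms the stalk that receives translation factors, Mrpl52 (83.4), Mrpl14 (76.1), whose protein is the docking site of the silencing factor MALSU1, and Mrpl42 (75.8). The highest small subunit genes were Mrps21 (71.7), Mrps34 (63.2), Mrps24 (41.3) and Mrps12 (34.6), the last encoding a protein of the decoding centre. Mrps34 shares 763 exon bases on the same strand with Nme3, whose counts were 26.0 to 35.6% of its own. Mrps24 shares 226 with Urgcp, whose counts were 44.1 to 106% of its own. The shared stretches are 37% of the exon bases of Mrps34 and 15.4% of those of Mrps24. Reads of these stretches were not counted apart, so both levels are uncertain by an unknown amount. The lowest were Mrpl19 (2.11) and Mrpl47 (2.54) in the large subunit and Mrps25 (1.85) and Mrps26 (4.56) in the small subunit. Mrps36 stood at 10.5 CPM per kb. Counted per kb of all exons together, Mrpl12 stayed at rank 1 and Mrps25 at rank 78, while Mrpl42 moved from rank 4 to rank 30 and Mrpl52 from rank 2 to rank 8. Each of these is a level over 16 libraries, since the groups differed far less than the genes.

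**Figure D1:**
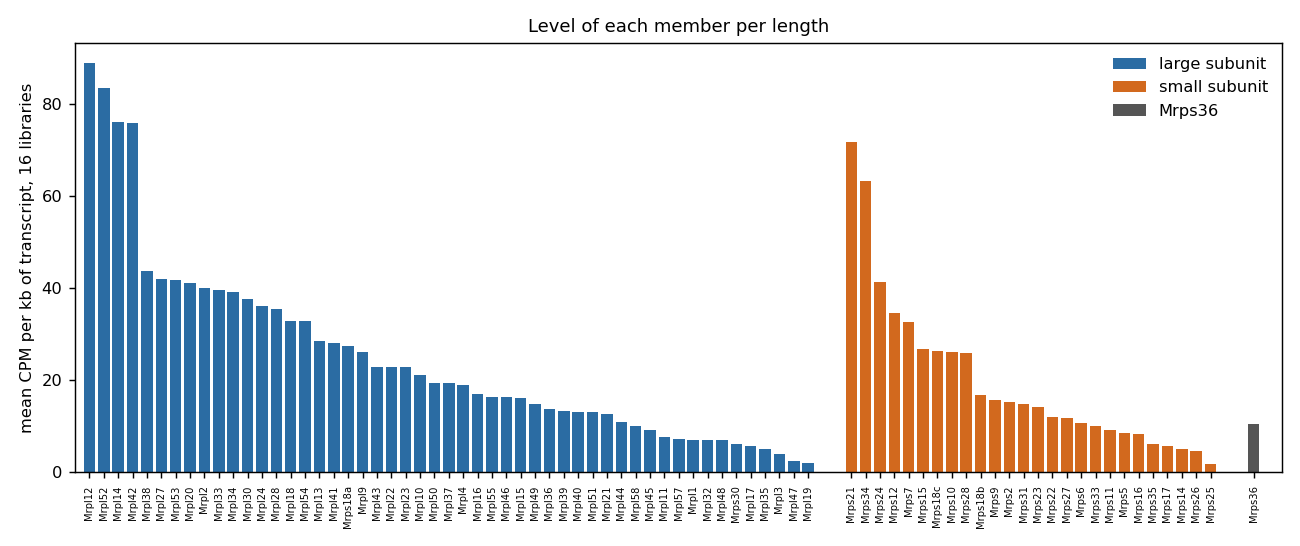
Mean level of each member over 16 libraries in CPM per kb of the principal transcript (linear axis from 0), ranked within the large subunit, the small subunit and Mrps36. Mrpl12 is highest at 88.8 and Mrps25 lowest at 1.85 CPM per kb.

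Mrpl12 stood at 116, 91, 102 and 126 CPM in mature LERKO libraries, 114, 125, 117 and 100 CPM in mature control libraries, 112, 115, 161 and 93.1 CPM in immature LERKO libraries and 123, 121, 113 and 141 CPM in immature control libraries. The 4 groups overlapped, and the highest and lowest values were both from LERKO mice. Mrps12 stood at 30.8, 27, 31.5 and 37.8 CPM in mature LERKO libraries, 27.6, 29.6, 27.5 and 31 CPM in mature control libraries, 31.2, 28, 32.3 and 29.8 CPM in immature LERKO libraries and 33.6, 28.6, 30.5 and 32.1 CPM in immature control libraries, again with all groups overlapping.

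Summed over each subunit, mean levels of LERKO and control livers of a stage differed by less than the SD within the groups. The 51 large subunit genes summed to 1530, 1275, 1490 and 1636 CPM in mature LERKO libraries and to 1542, 1597, 1496 and 1417 CPM in mature control libraries. They summed to 1530, 1539, 1944 and 1422 CPM in immature LERKO libraries and to 1625, 1540, 1623 and 1728 CPM in immature control libraries. The lowest and the highest of the 16 libraries, mature LERKO 2 and immature LERKO 3, were both LERKO. Group means were 1483 ± 152 CPM in mature LERKO and 1513 ± 76.1 CPM in mature control livers, and 1608 ± 230 CPM in immature LERKO and 1629 ± 77.0 CPM in immature control livers (SD, n = 4 each).

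The 26 small subunit genes summed to 652, 564, 639 and 706 CPM in mature LERKO libraries and to 644, 671, 617 and 621 CPM in mature control libraries. They summed to 657, 637, 774 and 629 CPM in immature LERKO libraries and to 696, 647, 686 and 709 CPM in immature control libraries. The same 2 libraries were at the ends. The large subunit sum was 2.31 ± 0.04 times the small subunit sum in mature LERKO and 2.37 ± 0.06 times in mature control livers, and 2.38 ± 0.11 times in immature LERKO and 2.38 ± 0.04 times in immature control livers (SD, n = 4 each). Over all libraries this ratio ran from 2.26 to 2.51, and both subunits moved together from library to library. Per length the mean large subunit gene was 1.20 to 1.31 times the mean small subunit gene in each library.

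**Figure D2:**
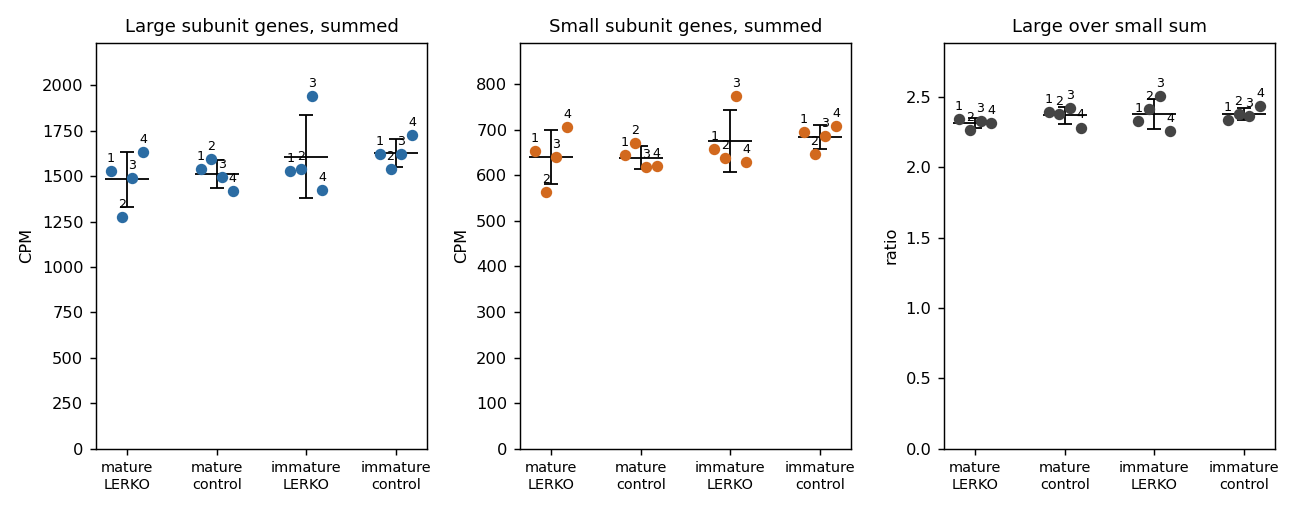
Summed CPM of the 51 large subunit genes (left), of the 26 small subunit genes (middle) and their ratio (right) in each of 16 libraries; points carry the library number, bars are group mean ± SD (n = 4), and axes start at 0. Mature LERKO 2 is lowest and immature LERKO 3 highest in both sums, while the ratio stays between 2.26 and 2.51.

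No member passed an adjusted p of 0.05 in any comparison. Counts were tested with edgeR's quasi-likelihood test in 1 fit over all 16 libraries, with p-values adjusted over 13379 genes by Benjamini-Hochberg. In mature LERKO against mature control livers 0 of 78 members were higher and 0 lower, against 0% of all tested genes higher and 0.00747% lower, the lower share being Esr1 alone. In immature LERKO against immature control livers the counts were 0 and 0, against 0% higher and 0.00747% lower, again Esr1. In mature against immature mice they were 0 and 0 in LERKO, against 0% in each direction, and 0 and 0 in control, against 0% in each direction. The test of whether the knockout effect differed between stages called 0 members either way, against 0% in each direction. DESeq2 and limma-voom also called 0 members in each comparison. Among all tested genes limma-voom called at most 1 in any comparison. DESeq2 called 13 higher and 14 lower of 13345 in mature and 12 and 1 in immature LERKO against control livers. Between stages it called 3 and 3 in LERKO and 67 and 7 in control livers, and for the difference of the knockout effects 1 and 21. Over both stages together it called 1 and 2, and over both genotypes 27 and 2.

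Few members had an unadjusted p below 0.05, apart from the comparison of stages over both genotypes. In mature LERKO against control livers edgeR gave 1 member higher and 0 lower, against 3.45% and 3.85% of all tested genes. In immature LERKO against control livers it gave 0 and 0, against 1.86% and 0.897%. In mature against immature mice it gave 0 higher and 1 lower in LERKO, against 3.09% and 1.84%, and 0 higher and 3 lower in control, against 7.56% and 2.29%. For the difference of the knockout effects it gave 1 higher and 0 lower, against 2.01% and 4.34%. Over both stages together, LERKO against control livers gave 1 member higher and 1 lower, against 2.02% and 1.67%. Over both genotypes together, mature against immature mice gave 0 higher and 7 lower, against 5.43% and 2.49%.

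The 95% intervals of members were narrow beside those of most tested genes. The 95% interval of every one of the 78 members lay within a 2-fold change either way in both knockout comparisons, against 81.2% of all tested genes in mature and 83.4% in immature mice. Within a 1.5-fold change either way lay 76 of 78 members in mature mice, against 58.5% of all tested genes, and 78 of 78 in immature mice, against 61.6%. For the difference of the knockout effects 78 of 78 intervals lay within 2-fold, against 67.6%, and 66 within 1.5-fold, against 38.5%. Over both stages together 78 of 78 intervals of LERKO against control livers lay within 2-fold, against 93.8%, and 78 within 1.5-fold, against 76.8%. The within-group SD of members on the log2 scale had a median of 0.16, against 0.24 over all 13379 tested genes and 0.18 over the 7124 tested genes with a mean CPM in the members' range.

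**Figure D3:**
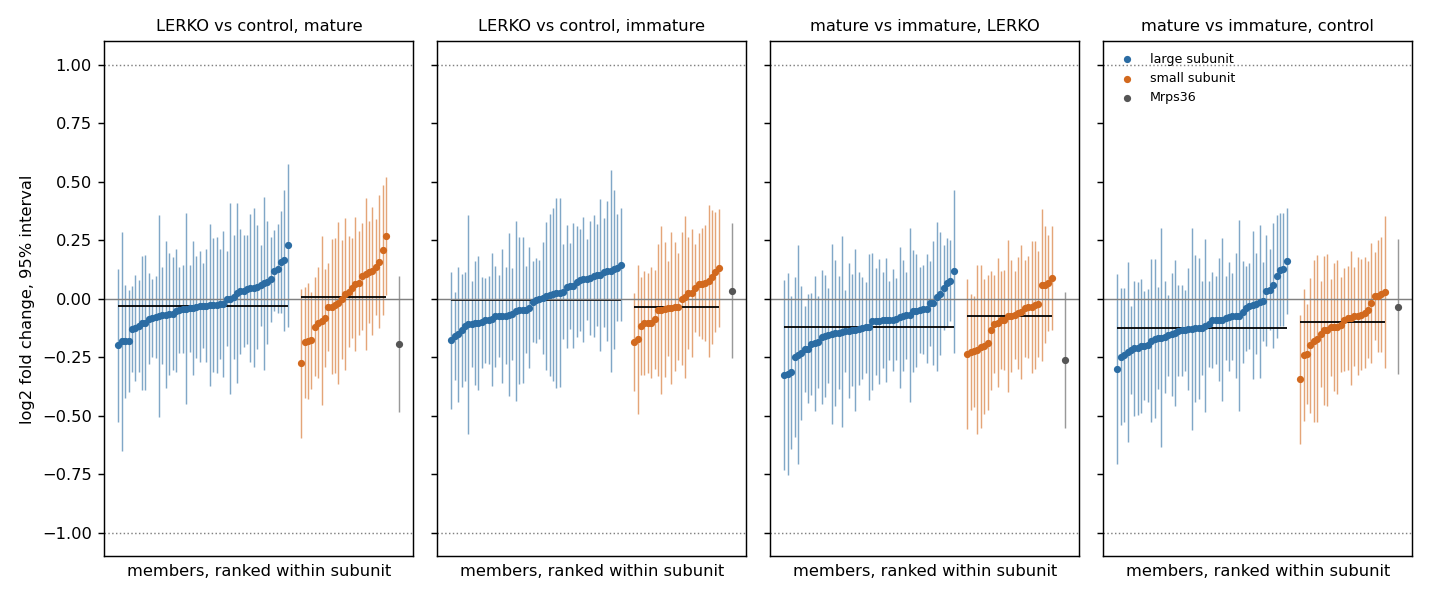
Log2 fold change (points) and 95% interval (vertical lines) of each member in 4 comparisons from edgeR, ranked within the large subunit, the small subunit and Mrps36; black lines are subunit medians, dotted lines mark a 2-fold change. All intervals lie between the dotted lines, and the medians lie below 0 for both subunits in the 2 comparisons of stages.

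In the knockout comparisons fold changes scattered on both sides of 0 in both subunits. In mature mice the median log2 fold change was -0.03 over large and 0.009 over small subunit genes, beside -0.01 over all tested genes, and 46 of 78 members were below 0, against 51.8% of all tested genes. Endothelial, stellate and Kupffer cell markers, 5 each, were all below 0 in mature LERKO against control livers (medians -0.44, -0.67 and -0.28). The 5 acute phase markers were all above 0 (median 6.30). They summed to 61453 CPM in mature LERKO library 4 and to 2360 to 3452 CPM in the other mature LERKO libraries. Without the muscle and acute phase libraries the members' medians were -0.01 and 0.01. In immature mice the members' medians were -0.006 and -0.03, beside 0.01, and 41 of 78 members were below 0, against 46.8%. There the endothelial and stellate cell markers were all above 0 (medians 0.28 and 0.29), as were 4 of the 5 Kupffer cell markers (median 0.04). Over both stages together the members' medians were -0.02 and 0.000, beside 0.002 over all tested genes, and 43 of 78 members were below 0, against 49.1%.

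Mrps25, a mitochondria-specific protein of the small subunit, had the smallest p in mature LERKO against control livers. It stood at 11.3, 12.4, 13 and 12.4 CPM in mature LERKO libraries and at 11.6, 10.6, 9.16 and 9.42 CPM in mature control libraries. LERKO was mostly higher, and the groups overlapped in 1 LERKO library. The log2 fold change of 0.27 (SE 0.12) did not pass (adjusted p = 0.666, edgeR). In immature mice it stood at 12.6, 9.49, 12.3 and 12.7 CPM in LERKO and at 9.38, 10.5, 12.4 and 10.7 CPM in control libraries. Of its exon bases, 69.8% overlap exons of Nr2c2 on the opposite strand, and neither labels nor table give the strand setting of the counting.

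Mrps35, also specific to mitochondria, was the small subunit gene with the smallest p in immature LERKO against control livers. It stood at 22.7, 26.2, 26.9 and 23.4 CPM in immature LERKO libraries and at 29.8, 26.9, 25.7 and 30.1 CPM in immature control libraries. In mature mice it stood at 29, 22.9, 22.3 and 22 CPM in LERKO libraries and at 28.7, 26.4, 27.6 and 26.1 CPM in control libraries. LERKO means were lower at both stages and the groups overlapped at both. The log2 fold change was -0.18 (SE 0.10) in mature mice (adjusted p = 0.711, edgeR) and -0.18 (SE 0.10) in immature mice (adjusted p = 1, edgeR). Over both stages together it was -0.18 (SE 0.07, adjusted p = 0.999, edgeR).

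Mrps9, the counterpart of a bacterial small subunit protein whose tail touches the bound tRNA, stood at 25.2, 15.1, 15 and 20.6 CPM in mature LERKO libraries and at 24.6, 25.1, 22.7 and 19.4 CPM in mature control libraries. LERKO libraries 2 and 3 were the lowest. The log2 fold change was -0.28 (SE 0.15, adjusted p = 0.711, edgeR). Mrpl15, of the large subunit, had the third smallest p of the members in immature mice. It averaged 70.8 ± 12 CPM in LERKO and 63.9 ± 3.42 CPM in control livers (SD, n = 4 each). That is a difference of 0.15 on the log2 scale (SE 0.11), with an adjusted p of 1 in edgeR. Immature LERKO library 3 stood at 88.0 CPM, the other LERKO libraries at 60.5 to 68.6 CPM and the controls at 59.4 to 67.5 CPM.

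Mrpl44, a large subunit protein with a fold like that of ribonuclease III, gave the smallest p for a knockout effect that differed between stages. It stood at 16.6, 14.2, 17 and 15.6 CPM in mature LERKO libraries and at 16.1, 14.5, 13.1 and 14.1 CPM in mature control libraries. In immature mice it stood at 15.7, 14.7, 16.2 and 13.8 CPM in LERKO libraries and at 17.8, 16.4, 16.4 and 16.7 CPM in control libraries. Every immature LERKO library was below every immature control library, while the mature groups overlapped. It was the only member without overlap between LERKO and control livers at either stage, 1 lower of 78 in immature mice, where 0.673% of all tested genes were lower and 0.957% higher without overlap. In mature mice 0 members were without overlap, against 2.29% lower and 1.61% higher. The difference of the knockout effects was 0.29 on the log2 scale (SE 0.13) and did not pass (adjusted p = 0.773, edgeR). Next by p came Mrpl55 at -0.26 (SE 0.15) and Mrpl3 at -0.27 (SE 0.16), with adjusted p of 0.79 and 0.792 in edgeR. The median of this difference was -0.003 over large and 0.02 over small subunit genes, and 37 of 78 members were below 0, against 51.3% of all tested genes.

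Between stages most members had negative fold changes in both genotypes. In the labels all sample numbers of mature mice are lower than all those of immature mice, and what the numbers stand for is not given. Anything that went with this numbering cannot be told apart from stage. In mature against immature control livers 67 of 78 members were below 0, against 46.9% of all tested genes, with medians of -0.12 over large and -0.10 over small subunit genes, beside 0.02 over all tested genes. In mature against immature LERKO livers 68 of 78 were below 0, against 49.6%, with medians of -0.12 and -0.07, beside 0.002. In control livers 78 of 78 intervals lay within a 2-fold change, against 78.8%, and 74 within a 1.5-fold change, against 57.5%. In LERKO livers the counts were 78, against 83.5%, and 73, against 59.3%. Over both genotypes together 70 of 78 were below 0, against 44.7%, and 7 members lower and 0 higher had an unadjusted p below 0.05 in edgeR, against 2.49% and 5.43% of all tested genes. These 7 included Mrpl37 at -0.16, Mrps6 at -0.22 and Mrpl38 at -0.14, with adjusted p of 0.582, 0.583 and 0.602 in edgeR.

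In LERKO livers this shift rested on library 3 of the immature group. Without it the medians were -0.01 over large and -0.005 over small subunit genes. Without mature LERKO library 2 they were -0.05 and -0.02, and without both they were 0.04 and 0.06. In control livers the medians stayed between -0.14 and -0.09 over large and between -0.14 and -0.08 over small subunit genes when each library was left out in turn. Scaled by library size alone they were -0.04 and -0.02 in control livers, where the median of all tested genes was then 0.10. Without mature control libraries 1 and 2 and immature LERKO library 4, which held the most muscle transcripts, they were -0.17 and -0.14. With mature control library 4 left out as well, they were -0.13 and -0.18, with a lone mature control assumed to vary like the other groups. In the same comparison all 5 endothelial markers were above 0 (median log2 fold change 0.70), as were all 5 Kupffer cell markers (0.64) and all 5 stellate cell markers (0.59), and 5, 5 and 1 of them had an unadjusted p below 0.05 in edgeR, where 0 passed after adjustment. Endothelial markers summed to 163 to 231 CPM in mature control and 110 to 162 CPM in immature control libraries, Kupffer cell markers to 184 to 251 CPM and 91.5 to 197 CPM, and stellate cell markers to 174 to 223 CPM and 101 to 149 CPM. The 6 hepatocyte markers had a median of -0.12, with 5 below 0. The part of these cell types in the values of members was not tested.

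Mrps6, the counterpart of a bacterial small subunit protein, had the smallest p of the members between stages in control livers. It stood at 7.62, 8.13, 7.15 and 7.99 CPM in mature control libraries and at 9.64, 9.35, 8.79 and 11.46 CPM in immature control libraries, with no overlap. The log2 fold change of -0.34 (SE 0.13) did not pass (adjusted p = 0.406, edgeR). In LERKO livers it stood at 9.29, 8.1, 10.1 and 8.17 CPM in mature and at 9.06, 8.42, 12.1 and 8.77 CPM in immature libraries, with overlap. It shares exon bases on the same strand with Slc5a3 (10.4% of its exon bases) and Gm49711 (19.9%). Counts of these genes were 50.7 to 117% and 42.5 to 53.6% of its own. Reads of the shared stretches were not counted apart, so its level is uncertain by an unknown amount.

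In control livers 6 members were lower in mature mice without overlap and 0 higher, against 2.75% and 6.11% of all tested genes. Of these 5 were of the large subunit, namely Mrpl44, Mrpl10, Mrpl52, Mrps18a and Mrpl58, and the 6th was Mrps6. Mrpl44 averaged 14.5 ± 1.26 CPM in mature control and 16.8 ± 0.684 CPM in immature control livers, which is a difference of -0.22 on the log2 scale (SE 0.09), with an adjusted p of 0.431 in edgeR. Mrpl58, a hydrolase that frees stalled ribosomes, averaged 24.8 ± 0.738 CPM in mature and 28.5 ± 2.31 CPM in immature control livers. Mrpl52 averaged 33.6 ± 1.87 CPM in mature and 38.6 ± 3.55 CPM in immature control livers. Mrpl10, named for its lack of overlap after its values were seen, averaged 33.8 ± 1.33 CPM in mature and 37.7 ± 1.95 CPM in immature control livers. In LERKO livers 0 members were without overlap between stages, against 0.635% lower and 0.882% higher.

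Mrps14 stood at 15.1, 15.6, 13.2 and 13.7 CPM in mature control libraries and at 15.3, 16.9, 18.6 and 17 CPM in immature control libraries. The groups overlapped, and the log2 fold change was -0.24 (SE 0.10, adjusted p = 0.452, edgeR). In LERKO livers the smallest p between stages was that of Mrpl49, which stood at 24.9, 22.9, 21.2 and 27.1 CPM in mature and at 29.7, 26.6, 27.6 and 27.4 CPM in immature LERKO libraries. Only mature LERKO library 4 reached the immature range. The log2 fold change was -0.21 (SE 0.09, adjusted p = 0.955, edgeR). Mrpl57, whose promoter is shown above, stood at 19.1, 12.9, 18.7 and 23.5 CPM in mature and at 19.8, 23.8, 28.9 and 19.6 CPM in immature LERKO libraries, which is a difference of -0.31 on the log2 scale (SE 0.15), with an adjusted p of 0.955 in edgeR. Mrps10 averaged 24.5 ± 2.57 CPM in mature and 28.7 ± 4.72 CPM in immature LERKO livers (SD, n = 4 each). That is a difference of -0.22 on the log2 scale (SE 0.11), with an adjusted p of 0.955 in edgeR. Relative to its mean over 16 libraries, Mrps10 had 0.42 in immature LERKO library 3 and -0.35 in mature LERKO library 2. The other LERKO libraries lay between -0.10 and 0.04.

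The members moved together more by library than by group. Relative to each member's mean over 16 libraries, immature LERKO library 3 was above it for 71 members and was the highest library for 39. Mature LERKO library 2 was below it for 73 members and was the lowest library for 48. The median deviation was 0.26 on the log2 scale over large and 0.25 over small subunit genes in immature LERKO library 3, and -0.26 and -0.23 in mature LERKO library 2. In the other 14 libraries the median over all members lay between -0.13 and 0.11.

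**Figure D4:**
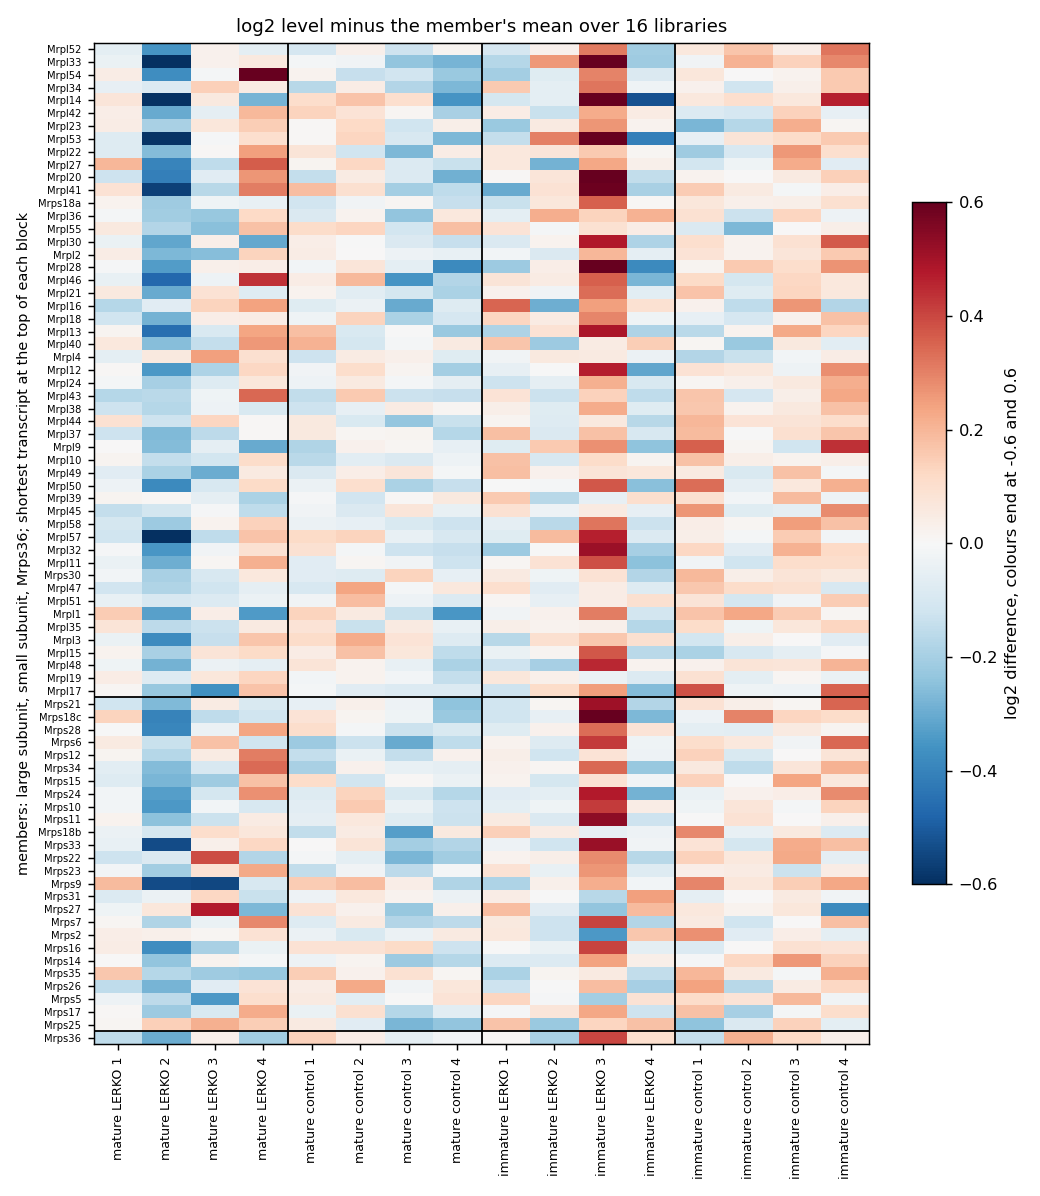
Log2 CPM of each member in each library minus that member's mean over 16 libraries (red higher, blue lower; colours end at -0.6 and 0.6), with the shortest transcript at the top of each subunit block. Immature LERKO 3 is red for most members and mature LERKO 2 blue for most, in both subunits.

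Transcript length moved with this pattern. The principal transcripts of members had a median length of 1302 bp, against 2921 bp over the tested genes. Among all other tested genes, those of at most 1000 bp had a median deviation of 0.28 in immature LERKO library 3 and -0.24 in mature LERKO library 2, while those over 5000 bp had -0.14 and 0.11. The 25 members of at most 1000 bp had 0.35 and -0.30. The 14 members above 3000 and up to 5000 bp still had 0.13 and -0.19, where other genes of that length had -0.09 and 0.04. The genes of the cytosolic ribosome are mostly short. They summed to 21741 CPM in immature LERKO library 3 and 11945 CPM in mature LERKO library 2, the highest and the lowest of the 16. Elsewhere they did not always go with the members. Their median deviations were -0.32 and -0.36 in immature LERKO libraries 1 and 4, where those of members were 0.007 and -0.08. In immature control library 4 they had 0.38, against 0.11 for members. With the length trend of each library removed, the medians of mature against immature mice were -0.08 over large and -0.04 over small subunit genes in LERKO, and -0.12 and -0.11 in control. The part of RNA quality or library preparation in this was not tested.

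**Figure D5:**
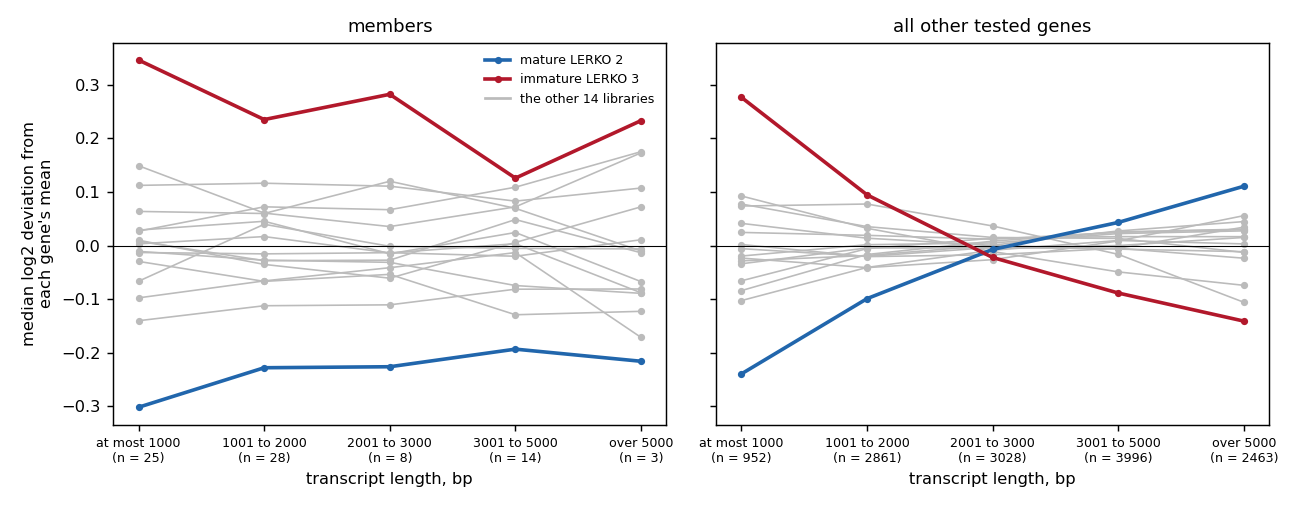
Median log2 deviation from each gene's mean, by class of principal transcript length, for the 78 members (left) and all other tested genes (right); each line is a library. In immature LERKO 3 (red) and mature LERKO 2 (blue) other genes cross 0 with length, while members stay on the same side in every class.

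Single members differed in how much they varied between mice of a group. The largest within-group SDs on the log2 scale were those of Mrpl14 (0.34) and Mrpl53 (0.32) in the large and Mrps18c (0.25) and Mrps33 (0.24) in the small subunit. Mrpl14 stood at 50.4, 31.6, 49.9 and 39.3 CPM in mature LERKO libraries, 51.6, 54, 51.3 and 37.4 CPM in mature control libraries, 44.4, 46, 78.6 and 33.2 CPM in immature LERKO libraries and 50.1, 51.3, 50.1 and 66.4 CPM in immature control libraries. The span within immature LERKO covered every other value except that of mature LERKO library 2. Mrpl53 shares 695 exon bases with Gm42688 on the same strand, whose counts were 108 to 120% of its own, so reads of this stretch may have been entered for both genes. The smallest SDs were those of Mrpl19 (0.08) and Mrpl51 (0.09) in the large and Mrps31 (0.11) in the small subunit. Mrpl19 stayed between 9.46 and 11.6 CPM in all 16 libraries, and Mrpl51 between 41.7 and 51.2 CPM.

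Other members with known special roles are given by group, and LERKO and control livers of a stage overlapped for each of them. Mrpl45, which anchors the ribosome at the inner membrane, averaged 20.6 ± 0.985 CPM in mature LERKO and 21.9 ± 1.06 CPM in mature control livers, and 22.4 ± 1.07 CPM in immature LERKO and 24.1 ± 3.30 CPM in immature control livers (SD, n = 4 each). Mrps30 averaged 19.4 ± 1.5 CPM in mature LERKO and 20 ± 1.47 CPM in mature control livers, and 20 ± 1.64 CPM in immature LERKO and 21.5 ± 1.12 CPM in immature control livers. The bacterial protein S18 has 3 relatives here, of which Mrps18c is counted below as its counterpart and the other two as specific to mitochondria. Mrps18a, of the large subunit, averaged 23.1 ± 1.62 CPM in mature LERKO and 23.1 ± 1.17 CPM in mature control livers, Mrps18b 18.2 ± 1.26 and 17.1 ± 2.19 CPM, and Mrps18c 15.2 ± 2.39 and 16.2 ± 1.47 CPM. In immature mice they averaged 25.7 ± 3.89, 18.5 ± 1.19 and 17.7 ± 5.47 CPM in LERKO and 25.2 ± 0.557, 18.9 ± 2.31 and 18.2 ± 1.78 CPM in control livers. Mrps36, in neither subunit, averaged 6.50 ± 0.696 CPM in mature LERKO and 7.43 ± 0.478 CPM in mature control livers, and 7.80 ± 1.46 CPM in immature LERKO and 7.61 ± 0.843 CPM in immature control livers.

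Members were also split into direct counterparts of bacterial ribosomal proteins and proteins counted as specific to mitochondria. In mature LERKO against control livers the median log2 fold change was -0.02 over 30 large subunit genes with a bacterial counterpart and -0.05 over 21 specific to mitochondria, and -0.01 over 16 and 0.08 over 10 such genes of the small subunit. In mature against immature control livers the medians were -0.09 and -0.13 in the large and -0.12 and -0.08 in the small subunit. These classes overlap in range and were not tested against each other.

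Genes of related lists, among them those of the separate cytosolic ribosome, did not pass either. The lists held 5 mitoribosomal proteins with other symbols, 26 assembly factors, 17 translation factors, 20 mitochondrial tRNA synthetases and 79 cytosolic ribosomal proteins. In any comparison edgeR called 0 of them, as among members, against at most 0.00747% of all tested genes in either direction. In mature LERKO against control livers 0 genes of these lists were higher and 1, a tRNA synthetase, was lower at an unadjusted p below 0.05, against 3.45% and 3.85% of all tested genes. In immature LERKO against control livers 0 were higher and 3 lower, 1 each in translation factors, tRNA synthetases and the cytosolic ribosome, against 1.86% and 0.897% of all tested genes. There 77 of the 79 cytosolic ribosomal genes were below 0 (median -0.14), while 41 of 78 members were, against 46.8% of all tested genes. Summed, the cytosolic ribosomal genes stood at 12374, 17155, 21741 and 12030 CPM in immature LERKO libraries 1 to 4. In immature control libraries 1 to 4 the sums were 16204, 17784, 15320 and 19964 CPM. The range of the LERKO libraries enclosed that of the controls. Tufm, the mitochondrial elongation factor that delivers aminoacyl-tRNA, averaged 74.1 ± 3.92 CPM in mature LERKO and 72.5 ± 4.04 CPM in mature control livers, and 76.0 ± 8.20 CPM in immature LERKO and 77.1 ± 5.66 CPM in immature control livers. Lrpprc, which stabilises mitochondrial messenger RNAs, averaged 93.3 ± 10.1 CPM in mature LERKO and 99.4 ± 4.22 CPM in mature control livers, and 105 ± 12.8 CPM in immature LERKO and 109 ± 8.14 CPM in immature control livers. Aurkaip1, a small subunit protein, had log2 fold changes of -0.04 in mature and -0.02 in immature LERKO against control livers, with adjusted p of 0.947 and 1 in edgeR.

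Between stages in control livers 4 of the 5 mitoribosomal genes with other symbols, 18 of 26 assembly factors, 14 of 17 translation factors, 14 of 20 tRNA synthetases and 78 of 79 cytosolic ribosomal genes were below 0 in mature mice, against 46.9% of all tested genes, with medians of -0.13, -0.06, -0.10, -0.10 and -0.22. In LERKO livers the counts below 0 in mature mice were 5 of 5, 16 of 26, 10 of 17, 11 of 20 and 75 of 79, against 49.6% of all tested genes, with medians of -0.13, -0.03, -0.01, -0.01 and -0.13. Lars2, which charges mitochondrial leucine tRNA, averaged 243 ± 61.4 CPM in mature control and 302 ± 36.2 CPM in immature control livers, which is a difference of -0.31 on the log2 scale, with an adjusted p of 0.558 in edgeR. Rps18, a cytosolic small subunit gene, averaged 248 ± 26.3 CPM in mature control and 312 ± 48.1 CPM in immature control livers, which is a difference of -0.33 on the log2 scale, with an adjusted p of 0.72 in edgeR. The 13 proteins that the mitochondrial ribosome makes could not be described, since all 13 of their genes were listed at 0 in every library.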

How the data were processed

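Total RNA was purified from livers on columns with DNase treatment, and stranded paired-end mRNA libraries were made, per the labels' protocols. The submitters' processing notes name STAR, limma, R 4.05 and the build mm10, without their roles. The counting program, annotation, strand setting and treatment of shared reads are unknown (not given in the sources used here). Deposited values are counts per gene and library, not normalized. The deposited values include estimated counts, not normalized, since 10 values, of 2 predicted genes, had decimals, which were rounded off. How these estimated counts were made before deposit is unknown (not given in the sources used here).

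Genes were kept by filterByExpr (minimum count 10, minimum total 15), TMM factors (0.852 to 1.07) were applied, and groups were compared with edgeR 4.0.16 (glmQLFit, glmQLFTest) in R 4.3.3 with 1 coefficient per group. The mice are separate animals per the labels, and intervals cover the spread between them. The SE is the size of the fold change on the log2 scale over the root of the F statistic. The common biological coefficient of variation was 21.2%. Lengths and positions are from GENCODE vM21 on GRCm38 (mm10), which held 35465 of the 35502 gene identifiers and all 78 members. Deviations by library used log2(CPM + 0.5). Exons of 33 members overlap those of another gene, on the same strand in 7.

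The members, subunit lists, gene lists and promoter letters were chosen with earlier results of these data known. Members were named by rule: the 3 smallest p in each comparison, the 4 highest and 2 lowest levels per kb in each subunit, the 2 largest and 2 smallest spreads in each subunit, and members with known special roles; 36 of 78 were named so. Alternatives covered DESeq2 1.42.0, limma-voom (limma 3.58.1), RLE factors, library size alone, other filters, an adjusted p of 0.1, a fit to the compared groups only and each library left out in turn. After the data were seen, libraries with muscle (in 2 sets) or acute phase transcripts and those at both extremes of the length trend were left out, and the trend was removed. The code was tested on simulated data.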

Additional observations from a re-analysis of the deposited data

Results flagged for a closer look

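Of 184 groups of 4 libraries looked at, 8 held a library far from the other 3 of its group; chance gives about 1 in 20. In mature LERKO livers, Mrps35 stood at 29.04 CPM in library 1, against 22.04 to 22.94 CPM in the others, and Mrps14 at 13.03 CPM in library 2, against 15.28 to 15.67 CPM. In mature control livers, Mrpl14 stood at 37.35 CPM in library 4, against 51.32 to 53.97 CPM, and Mrps30 at 22.2 CPM in library 3, against 19.1 to 19.48 CPM. The mitoribosomal genes with other symbols summed to 152.3 CPM in mature control library 4, against 163.5 to 165 CPM. In immature LERKO livers, Mrps25 stood at 9.49 CPM in library 2, against 12.27 to 12.68 CPM, and Mrps33 at 16.12 CPM in library 3, against 10.18 to 10.92 CPM. In immature control livers, Mrpl14 stood at 66.45 CPM in library 4, against 50.07 to 51.34 CPM.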

How the results depend on the processing

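The count of members called was 0 in all 200 combinations of another setting and a comparison. The smallest adjusted p of any member was 0.167, between stages in control livers with the compared groups alone (edgeR). Subunit medians moved beyond the spread between libraries in the following cases, with the cause not tested. With the libraries at both length extremes left out, mature against immature LERKO livers gave 0.0432 over large and 0.0551 over small subunit genes, and the difference of the knockout effects gave 0.1752 and 0.1401. With the muscle and acute phase libraries left out, the small subunit median between stages in LERKO livers was -0.1934. Scaled by library size alone, the difference of the knockout effects was -0.1341 and -0.107, where the median of all tested genes was -0.134. With subunits taken from symbols alone, the small subunit sums were 688.7 CPM in mature control and 738.8 CPM in immature control livers, and the ratios 2.09 in mature LERKO, 2.13 in mature control, 2.14 in immature LERKO and 2.14 in immature control livers, since this moves 3 genes. With each library left out in turn, medians over large and small subunit genes ran from -0.0519 to 0.0348 and -0.0354 to 0.1006 for mature LERKO against control, from -0.108 to 0.0469 and -0.0981 to 0.0352 for immature LERKO against control, from -0.1689 to -0.0137 and -0.1415 to -0.005 between stages in LERKO, and from -0.0485 to 0.0965 and -0.0301 to 0.0937 for the difference of the knockout effects. DESeq2 called 27 of all genes in mature and 13 in immature LERKO against control, 6 between stages in LERKO, 74 between stages in control and 22 for the difference of the knockout effects, where edgeR called 1, 1, 0, 0 and 0, and 6 between stages in control with the compared groups alone. No paired analysis was possible because the labels give the groups no shared replicate numbers. The lowest count of any member was 105, and the effect of depth was not tested.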
